A study of Mus musculus with 4 samples.

Results

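The genes described here are erythroid genes, which red cells and their precursors express, together with the embryonic globin genes. They were read in RNA of whole fetal mouse brain, and the labels do not mention removal of blood. The 9 symbols Hba-x, Hbb-y, Hbb-bh1, Alas2, Slc4a1, Klf1, Ahsp, Gata1 and Epor were looked up among probe sets annotated with exactly 1 symbol. Such a probe set was found for 8 of them, out of 19938 genes in all, and each of the 8 had 1 probe set. Ahsp was not analysed here. All brains came from C57BL/6J fetuses at embryonic day 16. The ethanol group came from females given ethanol in saline (2.5 g per kg) by injection on days 14 and 16 of gestation, and the control group from females given an equal volume of saline on those days. Fetal brains were taken on gestational day 16, and fetal sex is labelled unknown. Each array was hybridised with a pool of RNA of 3 mice, which gave 2 ethanol pools and 2 control pools from 12 mice.

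Haemoglobin is built from alpha-type and beta-type globin chains, and the mouse makes red cells in successive waves. Primitive red cells arise in the yolk sac and use the embryonic chains, the alpha-type chain zeta (Hba-x) and the beta-type chains epsilon-y (Hbb-y) and beta-h1 (Hbb-bh1). Definitive red cells arise in the fetal liver and use the adult-type chains. Alas2, Slc4a1, Klf1, Gata1 and Epor serve the red cell lineage in both waves. Embryonic day 16 lies in the period when definitive cells have taken over the circulation.

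The regions upstream of the embryonic globin genes Hbb-y and Hba-x are shown, each beside that of an adult-type gene of the same cluster. The reason was that Hbb-y and the adult-type signals differed widely in their range between pools. Alas2 is added as a gene of both waves. Promoter sequences were matched for 6 of the 9 symbols, but not for Hbb-bh1, Slc4a1 and Ahsp. Those printed are from RefSeq, build GRCm38.p6. Each is the 150 bases that end just before the annotated start, on the strand of the gene. Capitals mark 5 short motifs. Searched on either strand were GATAA (the core of sites for GATA factors), CACCC (the core of the box that KLF1 binds) and CCAAT (a common promoter box). Searched on the strand of the gene only were TATAA (the TATA box) and the related ATAAA. Both of these match where the box is followed by a further A, and a GATA core followed by A would overlap the related box. The windows lie at chr7:103853208-103853357 on the minus strand for Hbb-y, chr7:103827929-103828078 on the minus strand for Hbb-bs, chr11:32276450-32276599 on the plus strand for Hba-x, chr11:32283522-32283671 on the plus strand for Hba-a1, and chrX:150547267-150547416 on the plus strand for Alas2.
Hbb-y: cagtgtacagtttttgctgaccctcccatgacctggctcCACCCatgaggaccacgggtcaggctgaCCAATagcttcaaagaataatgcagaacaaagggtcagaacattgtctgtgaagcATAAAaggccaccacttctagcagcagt
Hbb-bs: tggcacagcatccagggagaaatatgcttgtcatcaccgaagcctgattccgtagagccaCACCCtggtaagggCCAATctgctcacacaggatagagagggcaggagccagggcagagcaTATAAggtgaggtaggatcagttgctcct
Hba-x: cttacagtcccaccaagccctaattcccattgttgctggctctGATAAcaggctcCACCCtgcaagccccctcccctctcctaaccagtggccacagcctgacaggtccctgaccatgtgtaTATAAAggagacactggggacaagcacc
Hba-a1: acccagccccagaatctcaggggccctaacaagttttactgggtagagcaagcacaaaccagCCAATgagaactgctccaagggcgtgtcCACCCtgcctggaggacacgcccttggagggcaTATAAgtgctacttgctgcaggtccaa
Alas2: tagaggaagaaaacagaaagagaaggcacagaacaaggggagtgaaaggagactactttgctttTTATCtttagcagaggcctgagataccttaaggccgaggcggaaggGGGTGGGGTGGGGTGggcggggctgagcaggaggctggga

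Both embryonic genes shown and both adult-type genes shown have a CACCC core and a box of the TATA type in these windows. The ATAAA of Hbb-y lies at -28 to -24 and the TATAA of Hba-x at -28 to -24 from the start. The Hba-x window also holds a GATAA at -107 to -103 and no CCAAT, while the Hbb-y window holds a CCAAT at -83 to -79. Both adult-type windows hold a CCAAT as well, at -76 to -72 in Hbb-bs and at -88 to -84 in Hba-a1. In Alas2 the GATAA stands on the opposite strand at -86 to -82, followed by 3 copies of CACCC on that strand. Over 32851 windows of the same length in the promoter table, GATAA occurred in 13.3%, CACCC in 37.4%, CCAAT in 24.5%, TATAA in 9.99% and ATAAA in 15.1%.

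The deposited values are log2 brightness values of a probe set, so a difference of 1 is a doubling of the signal. Brightness also depends on the probes, and levels of different genes are therefore not compared with each other. Precision is limited by the number of arrays, whose medians were 8.01 to 8.04. In a bulk sample, fewer red cells and less RNA per red cell cannot be told apart. Labels do not say which litters entered which pool, so p-values cover no more than the spread among the pools. The 10 fetal brain markers, such as Tubb3, Dcx and Stmn2, had a median of 11.3 and 11.4 in the ethanol pools and 11.4 and 11.4 in the control pools. Ethanol minus control was above 0 in 6 of them and below 0 in 4. Tubb3 had the widest range of the list, at 11.2 and 11.5 in the ethanol pools and 11.7 and 11.7 in the control pools. Skeletal muscle genes set control 1 and, less so, ethanol 2 apart from the other pools, as given beside Hbb-y below, and the sex-linked Xist stood at 12.0 and 12.8 in the ethanol pools, against 6.10 in control 1 and 12.8 in control 2.

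Hbb-y, the embryonic beta-type globin gene epsilon-y, had the widest spread of the 8 genes. Its log2 brightness was 7.47 in ethanol 1 and 9.08 in ethanol 2, against 9.92 in control 1 and 7.13 in control 2. Each group thus held 1 pool with a high and 1 pool with a low signal, and the groups overlapped fully. Ethanol 2 exceeded ethanol 1 by 1.61 (3.05-fold) and control 1 exceeded control 2 by 2.79 (6.90-fold). In its range over the 4 arrays Hbb-y ranked 18 among the 19938 genes, whose median range was 0.176.

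Hba-x encodes zeta, the embryonic alpha-type chain that pairs with the embryonic beta-type chains. It stood at 7.33 in ethanol 1 and 7.53 in ethanol 2, against 7.64 in control 1 and 7.24 in control 2. The pools lay in the order of Hbb-y, but the differences were far smaller, with 0.20 between the ethanol pools and 0.40 between the control pools. Its range of 0.40 ranked 1392 among all genes. Hbb-bh1, the third embryonic gene, had a log2 level of 5.66 and 5.69 in the ethanol pools and 5.68 and 5.59 in the control pools. These values lie below the lower quartile of all probe sets on every array (6.45 to 6.55), so Hbb-bh1 can show little of any difference.

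**Figure D1:**
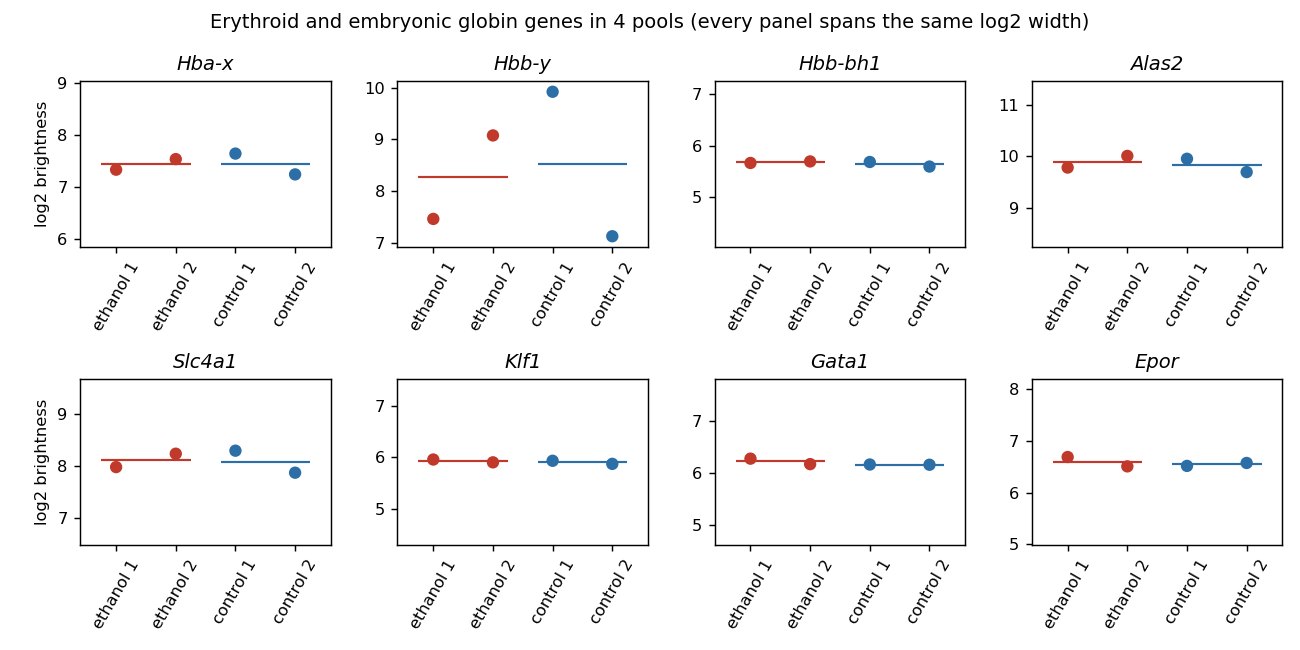
Log2 brightness of the 8 genes in each pool, with ethanol pools in red and control pools in blue and a line at each group mean; every panel spans the same width on the log2 scale. Hbb-y stands at 7.47 and 9.08 in the ethanol pools, against 9.92 and 7.13 in the control pools, while the other 7 genes vary by at most 0.42.

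Alas2 and Slc4a1, which serve both waves, followed a similar order of pools. Alas2, the erythroid 5-aminolevulinate synthase that starts haem synthesis, stood at 9.78 and 10.0 in ethanol 1 and ethanol 2, against 9.95 and 9.70 in control 1 and control 2. Slc4a1, the band 3 anion exchanger of the red cell membrane, stood at 7.98 and 8.24 in ethanol 1 and ethanol 2, against 8.30 and 7.88 in control 1 and control 2. In both genes ethanol 2 and control 1 were the higher pool of their group. Alas2 differed by 0.22 between the ethanol pools and by 0.26 between the control pools, and Slc4a1 by 0.26 and 0.42.

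The regulators and the receptor varied less and in no shared order. Klf1, the factor that activates the adult-type beta-globin gene, stood at 5.96 and 5.91 in the ethanol pools and at 5.93 and 5.88 in the control pools. Gata1, the main transcription factor of the red cell lineage, stood at 6.28 and 6.17 in the ethanol pools and at 6.16 and 6.16 in the control pools. Both genes lay below the lower quartile on every array. Epor, the erythropoietin receptor, stood at 6.68 and 6.50 in the ethanol pools and at 6.51 and 6.57 in the control pools, a range of 0.18 near the median of all genes. Its values were dim too, just above the lower quartile of each array (6.45 to 6.55). In Epor, unlike Alas2, ethanol 1 and control 2 were the higher pool of their group.

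Differences between the pools of one group were set against all genes, with 1 pool on each side and no test. Control 1 was at least 1.2-fold above control 2 in 3 of the 8 genes (Hbb-y, Slc4a1 and Hba-x), and 5.39% of all genes were. Ethanol 2 was at least 1.2-fold above ethanol 1 in 1 of the 8 (Hbb-y), against 2.97% of all genes, and Slc4a1 was just short of that limit at 1.196-fold. The members' median was 0.17 for control 1 minus control 2 and 0.12 for ethanol 2 minus ethanol 1, against -0.01 and -0.03 over all genes. Higher in control 1 than in control 2 were 7 of the 8 genes, where 46.5% of all genes were. Higher in ethanol 2 than in ethanol 1 were 5 of the 8, where 41.6% of all genes were. Hbb-bh1, Klf1 and Gata1, below the lower quartile on every array, are among the 7, and Hbb-bh1 is among the 5. The direction in these dim genes can show little.

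**Figure D2:**
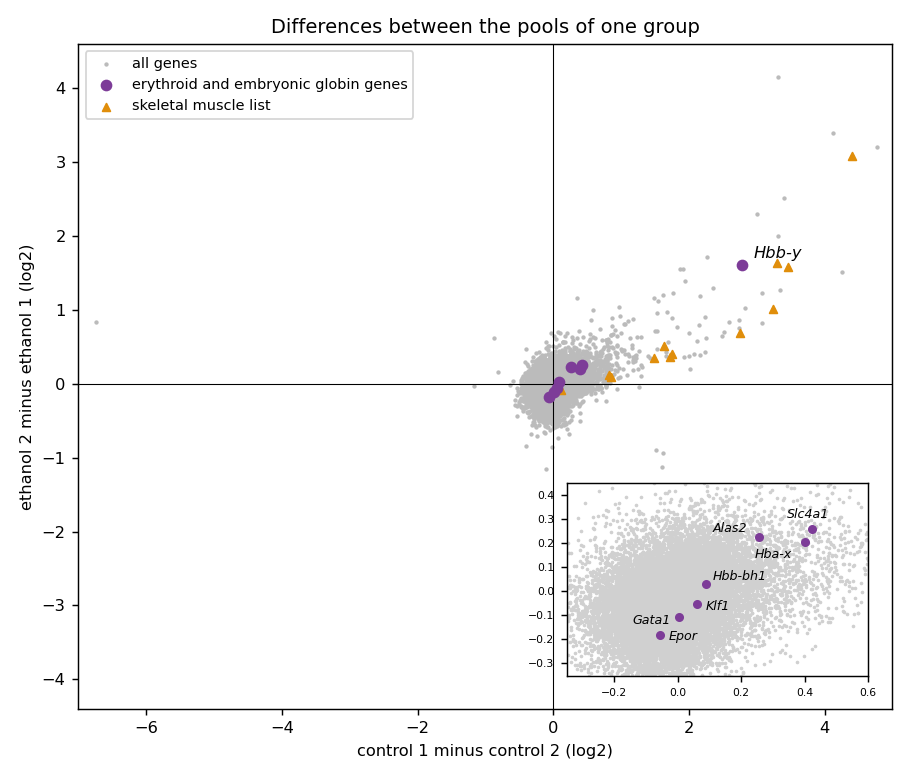
Each point is a gene, with control 1 minus control 2 on the horizontal axis and ethanol 2 minus ethanol 1 on the vertical axis, both log2; purple points are the 8 erythroid and embryonic globin genes, orange triangles the skeletal muscle list, and the inset enlarges the centre. Hbb-y lies at 2.79 and 1.61 among the muscle genes, and Alas2, Slc4a1 and Hba-x lie in the upper right of the central cloud.

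The adult-type globin signals ranged over far less than that of Hbb-y. Adult-type globin genes are near-identical copies, and 4 probe sets are annotated with several of their symbols at once, so no single gene can be named from them. The 2 alpha-type probe sets stood at 13.8 and 13.7 in ethanol 1 and at 13.6 each in ethanol 2, against 13.7 each in control 1 and 13.6 each in control 2. The 2 beta-type probe sets stood at 13.5 and 13.6 in ethanol 1 and at 13.7 and 13.8 in ethanol 2, against 13.8 and 13.9 in control 1 and 13.6 and 13.7 in control 2. These signals ranged over 0.14 to 0.25, where Hbb-y ranged over 2.79. The beta-type probe sets were higher in ethanol 2 than in ethanol 1 (by 0.20 and 0.19) and in control 1 than in control 2 (by 0.14 and 0.13), while the alpha-type probe sets were lower in ethanol 2 than in ethanol 1 (differences of -0.12 and -0.11) and higher in control 1 than in control 2 (by 0.11 and 0.12). At most 208 of 35556 probe sets were brighter than any of the 4 on an array. Whether the arrays still respond in proportion at such brightness was not tested.

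Of the other globin genes 3 had a probe set of their own. The theta-type gene Hbq1b stood at 7.96 and 7.40 in the ethanol pools and at 7.64 and 7.77 in the control pools, with ethanol 2 the lowest pool. Hbq1a stood at 6.02 and 5.95 in the ethanol pools and at 5.77 and 6.01 in the control pools, below the lower quartile on every array. Hbb-bh2 stood at 6.54 and 6.51 in the ethanol pools and at 6.41 and 6.42 in the control pools, below the lower quartile on 3 of the 4 arrays. In none of the 3 genes were ethanol 2 and control 1 both the higher pool of their group, as they were in Hbb-y. At their low brightness, the order of pools in Hbq1a and Hbb-bh2 can show little.

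Within each array the mean of the 3 embryonic genes minus the mean of Alas2 and Slc4a1 was taken as a contrast of primitive against shared erythroid signal. Its height depends on the probes, so only differences between pools can be read. The contrast was -2.06 and -1.69 in ethanol 1 and ethanol 2, against -1.38 and -2.13 in control 1 and control 2. It differed by 0.37 between the ethanol pools and by 0.75 between the control pools, and by -0.12 between the group means (ethanol minus control). The spread rests on Hbb-y. Without it the contrast was -2.39 and -2.51 in the ethanol pools and -2.47 and -2.37 in the control pools, and the difference between the group means was -0.03.

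In 11 of the 12 skeletal muscle genes (all but Myog), as in Hbb-y, control 1 was the highest pool and ethanol 2 the next. The mean log2 level of the 12 muscle genes was 7.24 in ethanol 1 and 8.05 in ethanol 2, against 9.35 in control 1 and 7.22 in control 2. Actc1, the cardiac alpha-actin that fetal skeletal muscle also makes, stood at 8.08 and 11.2 in the ethanol pools and at 12.6 and 8.15 in the control pools. Of the 12 genes, 9 were at least 2-fold higher in control 1 than in control 2, and 4 were at least 2-fold higher in ethanol 2 than in ethanol 1. The embryonic myosin Myh3 differed by 3.46 and 1.58 in these 2 comparisons, and Hbb-y by 2.79 and 1.61. The part of tissue other than brain in the Hbb-y signal was not tested.

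**Figure D3:**
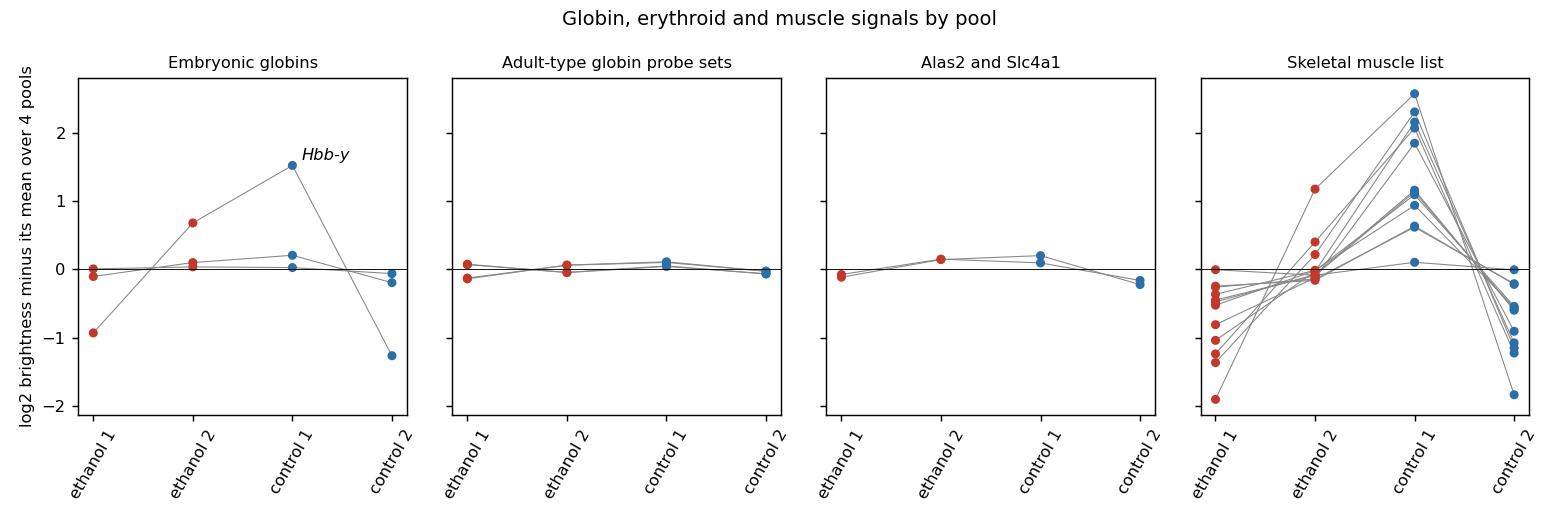
Log2 brightness minus its mean over the 4 pools for the embryonic globins, the 4 adult-type globin probe sets, Alas2 with Slc4a1, and the 12 muscle genes; grey lines join the values of 1 probe set, red points are ethanol pools and blue points control pools. Hbb-y and most muscle genes peak in control 1 with ethanol 2 next, while the adult-type globin probe sets each range over at most 0.25.

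Genes with a pattern most like Hbb-y were sought among all other genes, the other members included. The measure was the root mean square distance of the centred log2 values over the 4 arrays, a description with so few arrays. This search with Hbb-y alone was chosen after its values were seen. The nearest gene was Postn (periostin, a matrix protein of connective tissue and bone lining) at a distance of 0.221, with levels of 9.28 and 11.0 in the ethanol pools and 11.8 and 9.50 in the control pools. Next came Capn6 (a calpain) at 0.266, Otor (otoraplin) at 0.286, Rtl3 (a gene derived from a retrotransposon) at 0.296 and Col12a1 (a collagen chain) at 0.310. All members were left out of the searches that follow. For the median profile of Alas2 and Slc4a1 the nearest were Fgfrl1, Timp1, Zbtb8os, Igsf10 and Sp7, at 0.0131 to 0.0260. For the median profile of the 3 embryonic genes they were Zscan29, Vamp8, Fzd4, Lman1 and Tmem119, at 0.0122 to 0.0187. That profile equals the one of Hba-x, whose centred value was the middle one on every array. These neighbours are therefore those of Hba-x alone. Sp7, the factor that specifies bone-forming cells, stood at 7.09 and 7.38 in the ethanol pools and at 7.35 and 6.97 in the control pools.

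Ethanol and control did not differ detectably in any of the 8 genes. Limma called 0 of the 8 at a Benjamini-Hochberg adjusted p under 0.05, where 0.0% of all genes were called, with adjusted p-values from 0.980 to 0.998. At an unadjusted p under 0.05 there were 0 of the 8, against 2.94% of all genes, and the smallest unadjusted p of the 8 was 0.422 (limma). With a fold of at least 1.2 in addition there were likewise 0 of the 8, against 1.02% of all genes. Above 0 were 6 of the 8 differences and below 0 were 2, with a median of 0.03, against a median of 0.01 over all genes. Below 0 were 1 of the 8 after median centring, 3 after repeated quantile normalization, 6 without control 2 and 0 without control 1. The groups did not overlap in 1 of the 8 (Gata1), where 31.4% of all genes had groups apart.

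The sizes that the data allow differ widely between the genes. Hbb-y had a log2 difference of -0.25 ± 0.96 (ethanol minus control, SE, 2 pools per group), with a 95% interval from -2.64 to 2.13. Without control 1 this difference was 1.14 and without control 2 it was -1.65, so its sign rests on which pool is included. Hba-x had -0.01 ± 0.15, with an interval from -0.38 to 0.36, and Hbb-bh1 had 0.04 ± 0.07, with an interval from -0.14 to 0.21. Among genes of both waves Alas2 had 0.07 ± 0.12, with an interval from -0.23 to 0.37, and Slc4a1 had 0.03 ± 0.16, with an interval from -0.38 to 0.43. Without control 2 their differences were -0.06 and -0.19, and without ethanol 2 they were -0.04 and -0.10. The regulators Klf1 and Gata1 and the receptor gene Epor had differences of 0.03 ± 0.07, 0.06 ± 0.07 and 0.05 ± 0.09, and in Gata1 the lower ethanol pool and the higher control pool stood at 6.17 and 6.16. For the pools measured, a difference of 2-fold lies outside the intervals of Hba-x, Alas2 and Slc4a1. The intervals of Hbb-bh1, Klf1, Gata1 and Epor are narrow as well. However, the probe sets of Hbb-bh1, Klf1 and Gata1 lay below the lower quartile on every array, and that of Epor just above it. These intervals therefore set no limit on a change in RNA.

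**Figure D4:**
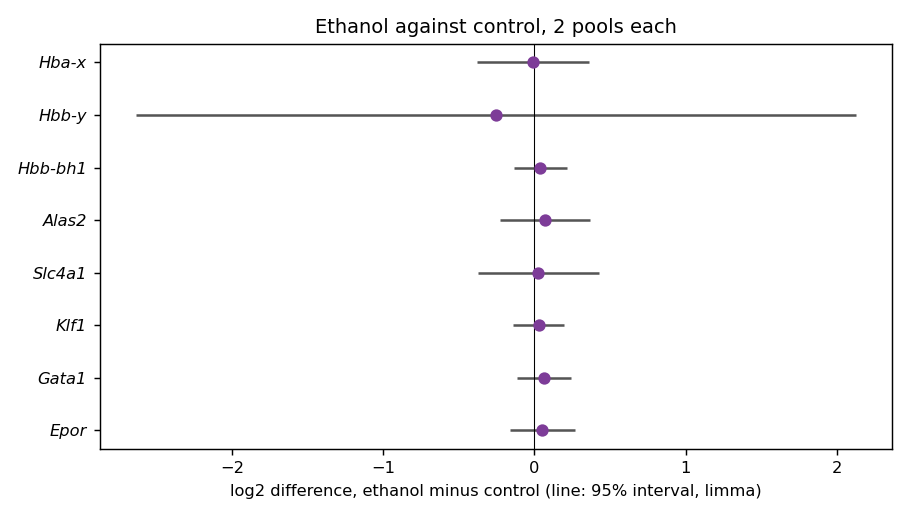
Log2 difference between the ethanol and control means for each of the 8 genes, with limma's 95% interval as a line. All intervals include 0, and that of Hbb-y, from -2.64 to 2.13, is the widest.

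Other genes of the red cell pathway were taken from lists by role. How much of their signal in whole brain came from red cells was not tested. Of 9 haem synthesis and mitochondrial import genes, 0 passed the adjusted test in either direction; all 9 differences were below 0, where 45.8% of all genes were, with a median of -0.07. Several lay close to 0, and 5 of the 9 were below 0 after median centring or repeated quantile normalization and 6 of the 9 without control 1 (median -0.01). Ppox, which carries out the penultimate step of haem synthesis, stood at 9.41 and 9.41 in the ethanol pools and at 9.65 and 9.55 in the control pools (difference -0.19 ± 0.07, limma adjusted p = 0.980). Slc25a37 (mitoferrin-1), which carries iron into mitochondria of red cell precursors, stood at 8.77 and 9.09 in the ethanol pools and at 9.17 and 8.70 in the control pools. Abcb10, which works beside it in the inner mitochondrial membrane, stood at 8.30 and 8.54 in the ethanol pools and at 8.59 and 8.39 in the control pools. In both genes ethanol 2 and control 1 were again the higher pools of their groups.

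Of 13 red cell membrane and skeleton genes, 0 passed the adjusted test, with 7 differences above and 6 below 0 and a median of 0.02. Tmod1, a tropomodulin that caps actin filaments in red cells and also in muscle, stood at 7.74 and 8.04 in the ethanol pools and at 8.87 and 7.69 in the control pools. Gypc, a glycophorin, stood at 7.81 and 7.59 in the ethanol pools and at 8.03 and 7.40 in the control pools. Cd44, an adhesion receptor that many cell types share, stood at 7.11 and 7.23 in the ethanol pools and at 7.59 and 7.11 in the control pools. Control 1 was the highest pool in all 3 genes, which were named for their wide range. The list as a whole did not share this. Only 4 of its 13 genes were higher in control 1 than in control 2 (46.5% of all genes), with a median of -0.09. However, 5 of the 13 lay below the lower quartile on every array, where the direction can show little.

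Of 12 erythroid transcription factors, 0 passed the adjusted test, with 6 differences on each side of 0 and a median of -0.01. Runx1, needed for definitive blood formation, had the widest range, with 7.34 and 7.58 in the ethanol pools and 7.82 and 7.36 in the control pools. Klf3 stood at 9.55 and 9.43 in the ethanol pools and at 9.51 and 9.26 in the control pools, and Gfi1b at 7.72 and 7.62 in the ethanol pools and 7.54 and 7.61 in the control pools. Bcl11a, which silences embryonic globin genes in definitive cells and is also a neuronal gene, stood at 12.4 and 12.3 in the ethanol pools and at 12.2 and 12.3 in the control pools. Bcl11a was named outside the rule of widest range, for its role.

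Of 8 iron handling genes, 0 passed the adjusted test. Their differences were above 0 in 2 and below 0 in 6 (45.8% of all genes), with a median of -0.06. Below 0 were 5 of the 8 after median centring or repeated quantile normalization, and 4 without control 1 (median -0.01). Aco1, the iron-responsive aconitase, stood at 10.2 and 10.4 in the ethanol pools and at 10.6 and 10.5 in the control pools. Fth1 (ferritin heavy chain) and Steap3 (a ferrireductase) had differences of -0.12 ± 0.08 and -0.08 ± 0.08. Of 20 genes on a further red cell list, 0 passed, with 11 above and 9 below 0 and a median of 0.02. This list shares Fech and Cpox with the haem synthesis list, Rhd with the membrane list and Blvrb with the haem clearance list. Car2, a carbonic anhydrase that glia also express, stood at 8.47 and 8.91 in the ethanol pools and at 9.07 and 8.81 in the control pools, while Car1 and Bpgm, which makes the red cell metabolite bisphosphoglycerate, had differences of -0.07 ± 0.10 and 0.15 ± 0.08.

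Of 9 genes of erythropoietin signalling, 0 passed the adjusted test, with 7 above and 2 below 0 and a median of 0.03 (4 above and 5 below without control 1). Epo itself lay below the lower quartile on every array, at 5.78 and 5.83 in the ethanol pools and 5.72 and 5.84 in the control pools. Cish, a feedback inhibitor that this pathway induces, stood at 8.10 and 7.79 in the ethanol pools and at 7.79 and 7.86 in the control pools, with ethanol 1 apart from the other 3. Socs3 and Stat5a had differences of -0.04 ± 0.09 and 0.01 ± 0.08. The 8 genes of haem clearance had a median of 0.01, with 4 on each side of 0 and 0 past the adjusted test. Their widest ranges were in Hamp, at 6.24 and 5.73 in the ethanol pools and 5.68 and 5.75 in the control pools, and in Hp and Slc40a1, with differences of 0.19 ± 0.09 and -0.20 ± 0.07.

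Markers of other cells that blood or adjoining tissue could bring were read beside these genes. Of 8 platelet genes, 2 were at least 1.2-fold higher in control 1 than in control 2 (5.39% of all genes) and 0 in ethanol 2 than in ethanol 1 (2.97% of all genes), and the other 6 were lower in control 1 than in control 2 (list median -0.03). Ethanol minus control was above 0 in 7 of the 8, with a median of 0.10, and 0 passed the adjusted test; without ethanol 1 it was above 0 in 3 of the 8. Ppbp stood at 6.78 and 6.79 in the ethanol pools and at 6.97 and 6.41 in the control pools, and Pf4 at 7.41 and 7.40 in the ethanol pools and 7.89 and 7.46 in the control pools. Gp9, a platelet glycoprotein, was instead highest in ethanol 1, at 8.54 in ethanol 1 and 8.17 in ethanol 2, against 8.19 in control 1 and 8.21 in control 2. Of 10 granulocyte genes, 8 lay below the lower quartile on every array, as did 4 of 7 hepatocyte genes, among them Alb and Afp. All 10 brain endothelial genes were below 0 in ethanol, with a median of -0.16 (8 of the 10 without control 1, median -0.03), and 9 of the 10 were higher in control 1 than in control 2, with a median of 0.19. The part of vessel content in the erythroid signal was not tested.

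**Figure D5:**
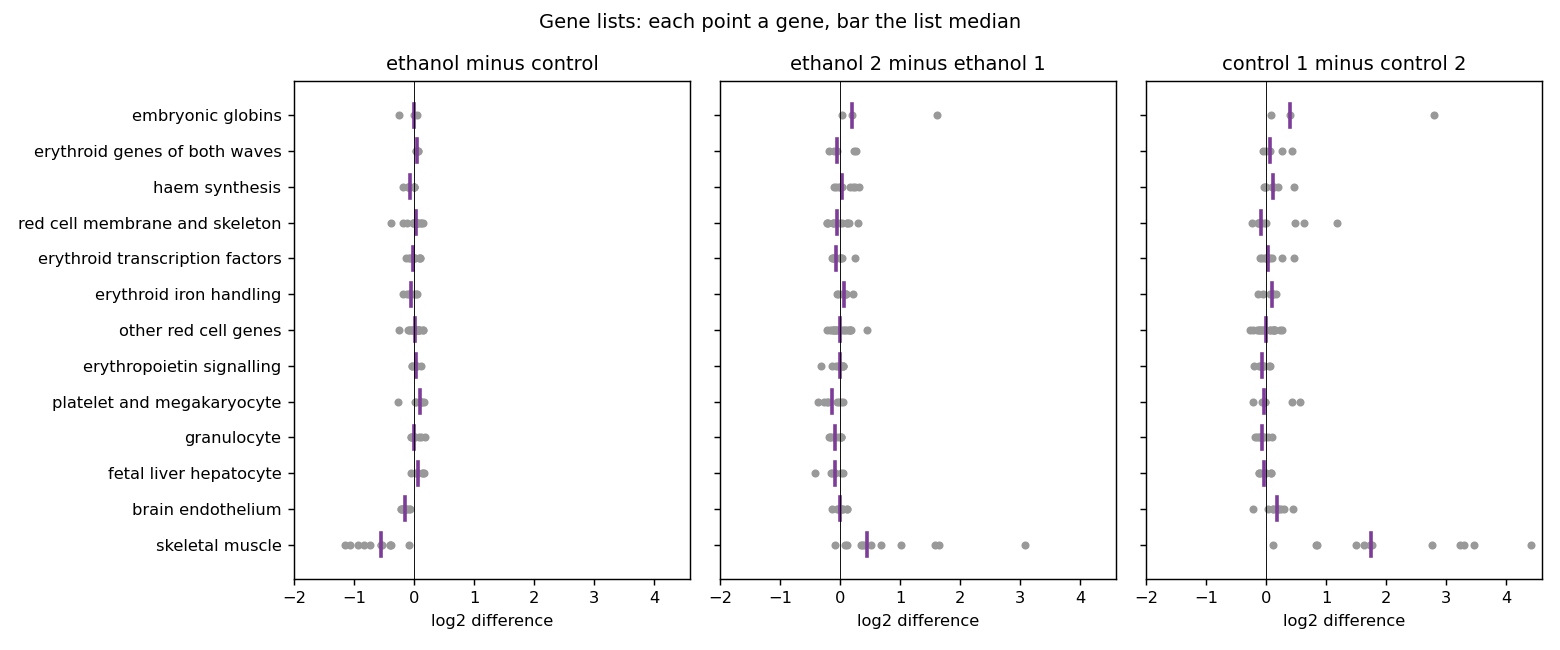
Log2 differences of the genes of 13 lists, one point per gene and a purple bar at the list median, for ethanol minus control, ethanol 2 minus ethanol 1 and control 1 minus control 2. The muscle list spreads furthest in the comparisons between pools of one group, where Hbb-y is the outlying embryonic globin at 1.61 and 2.79, and most erythroid lists stay near 0.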

How the data were processed

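The authors deposited 1 log2 brightness value per probe set and array, 35556 in all. Base 2 was inferred from the values' range, and no column belonged to other samples. The submitters' processing notes name Partek 6.6. The sources used here do not state the background correction, normalization, summary method or genome build, and differences at the dim end can depend on them. Of the probe sets, 21789 have 1 symbol, 1621 several and 12146 none. Symbols were updated by Entrez identifier (21698 matched, 91 kept). The brightest probe set represented each of 19938 genes.

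Ethanol was compared with control in limma 3.58.1 under R 4.3.3 (lmFit and eBayes without trend, two-sided), with Benjamini-Hochberg adjustment over all genes and 2 residual degrees of freedom (5.65 after moderation). The fit was tested on simulated data. The members, gene lists and motifs were chosen with earlier results of these data known. The rule named every member, the 3 genes of widest range in each erythroid list, and the 5 genes nearest to 2 profiles. The planned contrast and profile included Ahsp, which was left out. Alternatives were repeated quantile normalization, median centring, the mean of probe sets, brighter genes only, trend and robust variances, a replicate block and leaving out each array.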

Additional observations from a re-analysis of the deposited data

How the results depend on the processing

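With 2 pools per group, none of the 8 genes passed the adjusted threshold in the alternative fits to all arrays. Of the 74 alternative values computed, 60 kept their direction and 14 reversed. The 60 include values that could not reverse. The mean of probe sets changed nothing, as each gene had 1 probe set. Trend and robust variances, the replicate block and the limit to brighter genes leave the log2 difference itself as it was. Median centring turned the Hba-x difference to 0.0092, and repeated quantile normalization turned that of Klf1 to -0.015. With 1 array left out, the log2 differences ranged from -0.21 to 0.19 (Hba-x), -1.65 to 1.14 (Hbb-y), -0.0042 to 0.084 (Hbb-bh1), -0.057 to 0.20 (Alas2), -0.19 to 0.24 (Slc4a1), -0.0027 to 0.057 (Klf1), 0.0095 to 0.12 (Gata1) and -0.037 to 0.14 (Epor). The lone array of a group was then assumed to vary like the others. The contrast of embryonic against shared erythroid genes ranged from -0.50 to 0.25. Over all genes, the adjusted count of 0 (587 at an unadjusted p under 0.05) ranged from 0 to 4. The 203 genes at an unadjusted p under 0.05 and 1.2-fold ranged from 142 to 1265, and the 6252 with groups apart from 11642 to 14832, where fewer arrays must separate. Among brighter genes the 203 became 134, with fewer genes tested. A replicate block gave 0 called genes and 196 at an unadjusted p and 1.2-fold. Nothing in the labels says that equal numbers mark a pair, and the deviations of arrays with equal numbers had a correlation of -0.48. With crossed pairing, chosen after seeing the data, the counts were 0 and 373.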
